A study of Homo sapiens with 12 samples.

Results

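The genes described here are the integrin chains and laminin chains measured in MDA-MB-231 breast cancer cells treated with TNFα, with apigenin or with both. They were chosen by symbol: every gene of the integrin α, integrin β and laminin α, β and γ series that had a probe set carrying its symbol and no other. This gave 35 of the 22395 genes with such a probe set, namely 25 integrin chains (17 α and 8 β) and 10 laminin chains, each read from 1 probe set. Expression values played no part in the rule beyond choosing between several probe sets of a gene, which no member had. The families themselves were chosen with earlier results of these data known. ITGA1 was measured only on a probe set shared with PELO, which read 5.58 to 6.17 and was called in no comparison, and it is not counted among the 35.

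The 12 samples form 4 groups of 3: cells given TNFα at 40 ng/ml together with apigenin at 40 µM, cells given TNFα alone, cells given apigenin alone, and untreated control cells. The cytokine TNFα signals inflammation, largely through NF-κB transcription factors, and the flavone apigenin is found in many plants. Treatments lasted 24 h and both agents were made up in Hanks' balanced salt solution; whether control cells received that solution is not given in the labels. All groups share a single established line, derived from the pleural effusion of a patient with triple-negative breast cancer, in high-glucose medium with serum. The labels do not say whether the 3 samples of a group were separate cultures. The p-values set a difference of group means only against the spread of these samples within groups, and that spread may be technical.

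Integrins are cell-surface receptors made of 1 α and 1 β chain that join the extracellular matrix outside the cell to the cytoskeleton inside it. The β4 chain pairs with α6 alone, and α6β4 holds epithelial cells to laminin at hemidesmosomes, while β1 pairs with many α chains. Laminins are trimers of an α, a β and a γ chain that form the sheet-like core of basement membranes, and in breast epithelium they are both a scaffold and a signal read through integrins.

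Levels are given as deposited, on the log2 scale, with array medians between 2.09 and 2.16. Across genes, r was 0.983 to 0.991 between arrays within a group and 0.966 to 0.990 between groups, and no arrays were identical. Of the markers for the line, VIM and CD44, which mesenchymal-like breast lines express, read 7.93 to 8.30 and 7.29 to 8.32, and the luminal keratins KRT8 and KRT18 read 2.64 to 3.66 and 2.93 to 4.04. CD44 was called in 1 comparison and KRT18 in 2. Of 13 markers of leukocytes, endothelium, fibroblasts and platelets, 8 were tested and none was called in any comparison. CD68, PF4 and CDH5 were at or above the array median on all 12 arrays, and CD68, a lysosomal protein of macrophages that other cells also make, read 9.52 to 9.95. The mean level of the 8 markers spanned 3.16 to 3.18 on the arrays with both agents, 3.06 to 3.28 on the TNFα arrays, 3.10 to 3.21 on the apigenin arrays and 3.00 to 3.27 on the control arrays. In total RNA from a dish of cells, fewer cells of a kind and less RNA per cell cannot be told apart.

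The families split into a measured part and a dim part. At or above the array median on all 12 arrays were 16 members, among them ITGB4, ITGA6 and ITGB1, the chains of the laminin receptors α6β4 and α6β1. The other 19 read 1.34 to 2.65, the low part of the scale. These were the leukocyte chains ITGAD, ITGAE, ITGAL, ITGAM, ITGAX, ITGB2 and ITGB7, the platelet chain ITGA2B, the chains ITGA4, ITGA7, ITGA8, ITGA9, ITGA10, ITGA11 and ITGB6, and the laminin chains LAMA1, LAMA2, LAMB4 and LAMC3. None of the 19 was called in any comparison: their largest difference between groups was -0.34 on the log2 scale and their smallest adjusted p in the limma fit was 0.109. All 35 members passed the filter on dim probe sets.

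A linear model of the 4 group means was fitted with limma over 20572 genes, and a call means a p below 0.05 after Benjamini-Hochberg adjustment over all of them. By this test 11 of the 35 members were called in at least 1 of 6 comparisons and 24 in none. The share of all genes called in at least 1 comparison was not counted, so this count has no background beside it. With TNFα against control LAMB3 rose while ITGB4 and LAMA5 fell, so 1 member of 35 was higher and 2 were lower, where 0.778% of all genes were called higher and 0.219% lower. With apigenin against control 7 members fell and none rose: ITGA2, ITGA6, ITGB4, ITGB8, LAMA5, LAMB1 and LAMC1. Of all genes 6.83% were called lower and 4.55% higher in that comparison.

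With both agents against TNFα, ITGA6, ITGAV, LAMB1 and LAMC1 fell and no member rose, beside 5.92% of all genes called lower and 4.21% higher. With both agents against apigenin limma called no member in either direction, although 8 members (22.9%) had an unadjusted p below 0.05, as did 7.24% of all genes; after adjustment, 0.209% of all genes were called higher and 0% lower. With both agents against control ITGA6, ITGB4, ITGB5, ITGB8, LAMA5, LAMB1 and LAMB2 fell and none rose, beside 5.37% of all genes called lower and 7.15% higher. The share of calls that were higher depends on scaling: with quantile normalisation 1300 genes were higher and 2049 lower in this last comparison, against 1471 and 1105 as deposited, and with TNFα against control 181 were higher and 123 lower, against 160 and 45.

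The sixth comparison, the interaction, is the TNFα difference in the presence of apigenin minus that in its absence. It called no member and, of all genes, 0.00972% higher and 0.0437% lower. At an unadjusted p below 0.05 were 4 members (11.4%) and 4.23% of all genes. Against control, these shares of members and of all genes were 28.6% and 11.6% for TNFα, and 22.9% and 22.5% for apigenin. For both agents they were 22.9% and 21.8% over TNFα, and 25.7% and 24.0% over control. The shares of members were near those of all genes for apigenin against control and for both agents over TNFα and over control. They were above those of all genes for TNFα against control, for both agents over apigenin and for the interaction. The median log2 difference of the 35 members stands here against that of all genes: -0.03 against 0.02 for TNFα, -0.02 against -0.02 for apigenin, -0.03 against -0.01 for both agents over TNFα, -0.06 against 0.03 for both over apigenin, and -0.07 against 0.00 for both over control. For the interaction it was -0.06 against 0.01. By family, the 25 integrins had medians of 0.00 with apigenin against control, -0.01 with both agents against TNFα and -0.06 with both against control, and the 10 laminins had -0.18, -0.24 and -0.18 in the same comparisons. The 19 dim members weigh on these medians.

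The 16 brighter members averaged at least 2.76 over the 12 arrays, and 10476 genes did so in all. With apigenin against control 14 of the 16 were lower, with a median of -0.33, where 53.2% of those genes were lower and their median was -0.03. With both agents against TNFα 13 of the 16 were lower (median -0.24, beside 53.4% of genes and -0.03), and with both against control 11 were lower (median -0.30, beside 46.5% and 0.03). With TNFα against control 8 were lower (median 0.01, beside 37.5% and 0.07), and with both agents against apigenin 8 were lower (median -0.01, beside 34.0% and 0.08). These counts describe the probe sets and carry no test. Comparisons that use the same control or treated arrays are not independent of each other.

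**Figure D1:**
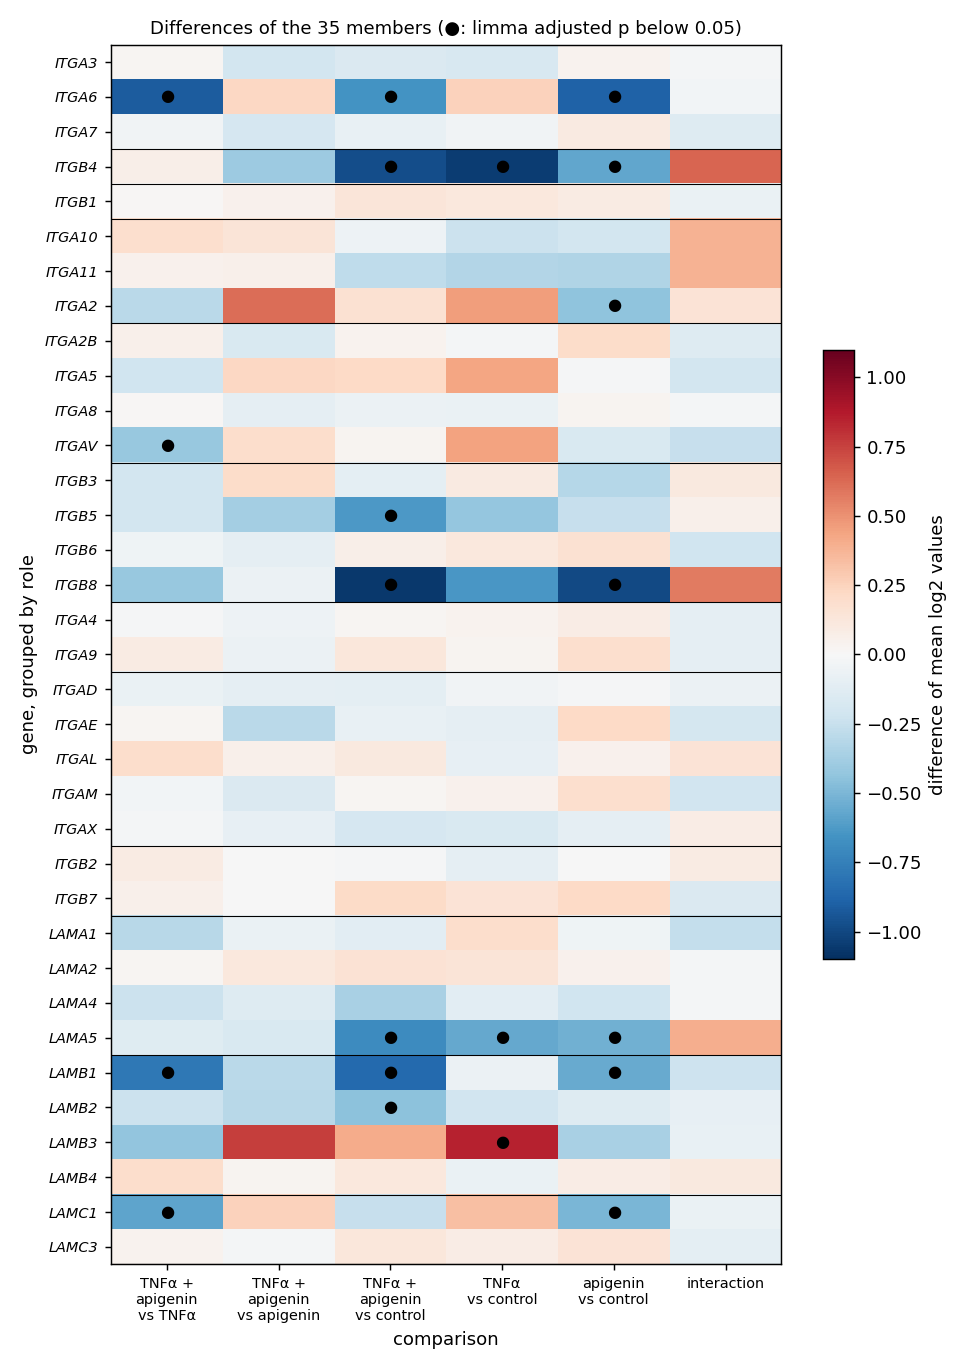
Colour gives the difference of mean log2 values (first group minus second) for each of the 35 members, grouped by role, in the 6 comparisons; a dot marks a limma adjusted p below 0.05. Calls lie in 11 genes, and all but that of LAMB3 with TNFα are on the lower side.

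Among the receptors of laminin, ITGA6 fell wherever apigenin was added. ITGA6 (probe set 16887702) read 8.42, 8.39 and 8.49 with both agents, 9.25, 9.38 and 9.43 with TNFα, 8.30, 8.12 and 8.20 with apigenin, and 9.06, 9.10 and 9.13 in control. The 6 arrays with apigenin lay below the 6 without it, and no groups overlapped. With apigenin against control the difference was -0.89 (SE 0.10, 1.86-fold lower, limma adjusted p = 0.000125), and with both agents against TNFα it was -0.92 (SE 0.10, adjusted p = 0.000141). TNFα itself gave 0.26 (adjusted p = 0.363) alone and 0.23 (adjusted p = 0.682) beside apigenin, and neither was called. The interaction of ITGA6 was -0.03, with a 95% interval of -0.35 to 0.29.

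ITGB4, whose only partner is α6, fell with each agent. ITGB4 (probe set 16837938) read 6.42, 6.45 and 6.23 with both agents, 6.31, 6.43 and 6.16 with TNFα, 6.80, 6.68 and 6.82 with apigenin, and 7.39, 7.27 and 7.36 in control. Every treated array lay below every control array, and the arrays with both agents overlapped those with TNFα alone. The difference was -1.04 with TNFα (SE 0.11, 2.06-fold lower, limma adjusted p = 0.000304), -0.57 with apigenin (SE 0.11, adjusted p = 0.00497) and -0.97 with both agents against control (SE 0.11, adjusted p = 0.000109). Adding apigenin to TNFα gave 0.07, with a 95% interval of -0.18 to 0.31. Adding TNFα to apigenin gave -0.40 (95% interval -0.65 to -0.16, adjusted p = 0.371), which was not called. The interaction was 0.64 (95% interval 0.29 to 0.99), and its limma p of 0.00152 became an adjusted p of 0.68 over all genes, so a smaller TNFα difference in the presence of apigenin was not called.

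The common partner chain ITGB1 was called in no comparison. ITGB1 (probe set 16713144) read 5.87, 5.97 and 5.95 with both agents, 5.82, 5.95 and 5.97 with TNFα, 5.84, 5.86 and 5.95 with apigenin, and 5.80, 5.86 and 5.73 in control. Its difference from control was 0.13 with both agents (95% interval -0.09 to 0.35), 0.12 with TNFα (-0.11 to 0.34) and 0.09 with apigenin (-0.13 to 0.31). The intervals leave room for a rise of up to 0.35. ITGA3, whose product forms the laminin receptor α3β1, was likewise called nowhere, with -0.18 for TNFα (95% interval -0.41 to 0.05) and 0.04 for apigenin against control.

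ITGA2, the α chain of the collagen receptor α2β1, fell with apigenin. ITGA2 (probe set 16984689) read 8.96, 9.14 and 9.14 with both agents, 9.33, 9.40 and 9.41 with TNFα, 8.44, 8.51 and 8.47 with apigenin, and 8.85, 8.78 and 9.11 in control. The apigenin arrays were the lowest and the TNFα arrays the highest, and the arrays with both agents overlapped the control arrays. The apigenin difference was -0.44 (SE 0.12, limma adjusted p = 0.0223), and it was not called without control array 3 or without any 1 of the apigenin arrays (adjusted p up to 0.182 over the alternatives tried). TNFα gave 0.46 against control (adjusted p = 0.0899) and 0.61 on top of apigenin (adjusted p = 0.0567), and neither was called. The difference between both agents and control was 0.17 (adjusted p = 0.449).

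Among the chains of receptors for fibronectin, vitronectin and other ligands with the RGD motif, ITGAV was called once. ITGAV (probe set 16888512) read 7.88, 7.83 and 7.97 with both agents, 8.21, 8.35 and 8.38 with TNFα, 7.78, 7.55 and 7.77 with apigenin, and 7.68, 7.94 and 7.98 in control. Every array with TNFα alone lay above all others. With both agents against TNFα the difference was -0.42 (SE 0.12, limma adjusted p = 0.0426), and this call was lost on leaving out any 1 of the TNFα arrays or of the arrays with both agents, or apigenin array 1 or 3. ITGA5, the α chain of the fibronectin receptor α5β1, read 6.98, 6.92 and 6.62 with TNFα and 6.41, 6.35 and 6.46 in control, a difference of 0.43 that was not called (adjusted p = 0.124).

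Of the β chains that pair with αV, ITGB5 and ITGB8 were called. ITGB5 (probe set 16958356), of the vitronectin receptor αVβ5, read 5.68, 5.65 and 5.58 with both agents, 5.70, 5.84 and 5.97 with TNFα, 6.06, 5.89 and 6.06 with apigenin, and 6.30, 6.05 and 6.44 in control. All arrays with both agents lay below all control arrays, with a difference of -0.63 (SE 0.13, limma adjusted p = 0.00469). Neither single agent was called, at -0.43 for TNFα (adjusted p = 0.166) and -0.26 for apigenin (adjusted p = 0.25).

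ITGB8 (probe set 17043982), whose αVβ8 receptor activates latent TGF-β, read 2.40, 2.25 and 2.48 with both agents, 2.69, 2.67 and 3.04 with TNFα, 2.54, 2.23 and 2.56 with apigenin, and 3.34, 3.08 and 3.89 in control. Control arrays were the highest and the most spread. The arrays with apigenin, alone or with TNFα, read 2.23 to 2.56, within the 1.34 to 2.65 range of the dim members. The size of a fall is hard to measure there. The difference was -0.99 with apigenin (SE 0.19, limma adjusted p = 0.00333) and -1.06 with both agents against control (SE 0.19, adjusted p = 0.0019). TNFα alone gave -0.64 (adjusted p = 0.156). ITGB3, of the αVβ3 receptor, was called nowhere and read 2.53 to 3.21 over the 12 arrays.

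**Figure D2:**
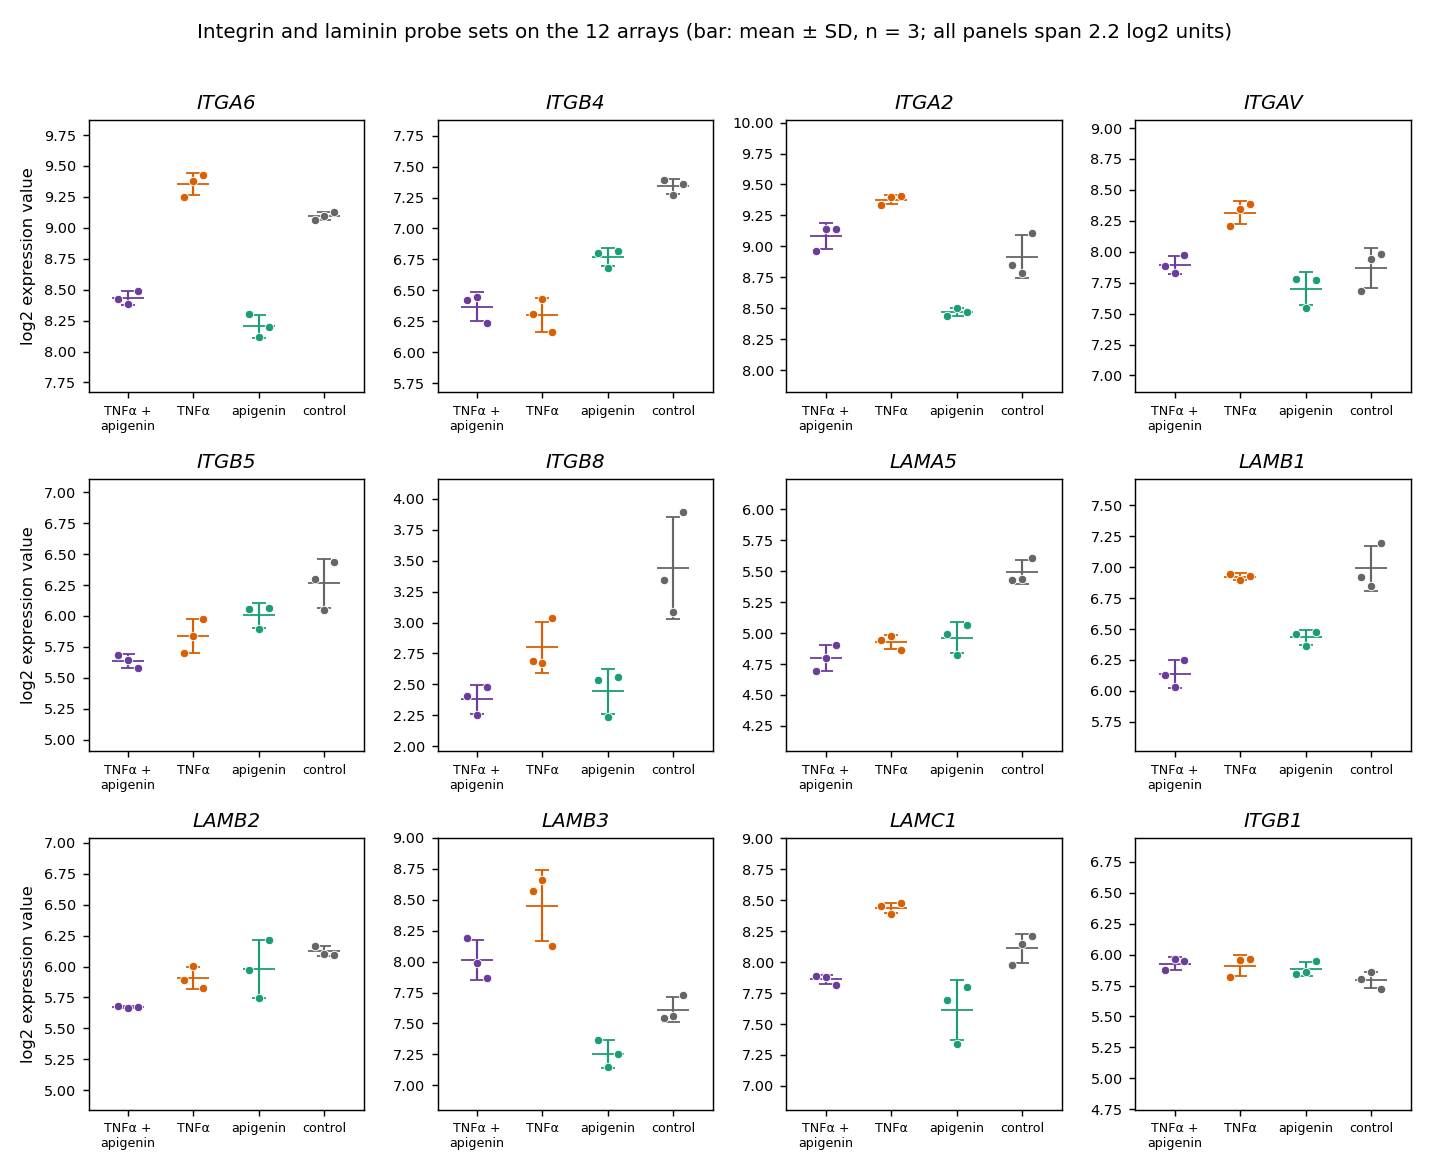
Points are the log2 expression values of the 3 arrays of each group for the 11 called members and ITGB1, with the mean and SD as bars. Each panel has its own range of equal height; ITGA6 separates arrays by apigenin, ITGB4 is highest in control, and LAMB3 is highest in the groups with TNFα.

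Among the laminin chains LAMB3 was the only member of either family called higher. Its product is the β chain of the laminin found at hemidesmosomes. LAMB3 (probe set 16698883) read 8.19, 7.99 and 7.86 with both agents, 8.57, 8.66 and 8.12 with TNFα, 7.37, 7.14 and 7.25 with apigenin, and 7.54, 7.56 and 7.73 in control. All arrays with TNFα, with or without apigenin, lay above all arrays without it. TNFα against control gave 0.84 (SE 0.15, 1.79-fold higher, limma adjusted p = 0.0122), and this was not called without control array 1, control array 2 or TNFα array 1 (adjusted p up to 0.0951 over the alternatives tried). On top of apigenin TNFα gave 0.76 (SE 0.15, adjusted p = 0.0703), which was not called, and the interaction was -0.08. Apigenin gave -0.36 against control (adjusted p = 0.163) and -0.44 on top of TNFα (adjusted p = 0.0846).

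Because LAMB3 was the member that rose with TNFα, 2 of its 3 promoter windows are shown (the third overlaps the first) next to that of LAMB1, a chain of the same family whose TNFα difference from control was -0.07. Each window is 300 bases around a transcript start, mostly before it, printed 5′ to 3′ on the minus strand, where both genes lie, from RefSeq on GRCh38.p14. Capitals mark stretches that match the NF-κB decamer (in the first and last window) or the AP-1 heptamer TGANTCA (in the middle window), searched on both strands with overlapping matches joined.
LAMB3 chr1:209652376-209652675: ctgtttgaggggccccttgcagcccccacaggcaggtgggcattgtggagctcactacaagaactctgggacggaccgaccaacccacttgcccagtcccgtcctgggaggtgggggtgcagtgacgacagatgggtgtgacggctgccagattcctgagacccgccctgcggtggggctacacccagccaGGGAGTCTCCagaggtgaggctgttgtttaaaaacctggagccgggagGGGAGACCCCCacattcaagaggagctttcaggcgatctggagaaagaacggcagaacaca
LAMB3 chr1:209651325-209651624: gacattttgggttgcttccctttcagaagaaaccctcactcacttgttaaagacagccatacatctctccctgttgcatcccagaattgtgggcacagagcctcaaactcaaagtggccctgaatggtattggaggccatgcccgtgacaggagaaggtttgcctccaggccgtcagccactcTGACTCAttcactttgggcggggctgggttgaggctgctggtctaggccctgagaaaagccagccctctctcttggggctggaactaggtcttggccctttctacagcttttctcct
LAMB1 chr7:108003112-108003411: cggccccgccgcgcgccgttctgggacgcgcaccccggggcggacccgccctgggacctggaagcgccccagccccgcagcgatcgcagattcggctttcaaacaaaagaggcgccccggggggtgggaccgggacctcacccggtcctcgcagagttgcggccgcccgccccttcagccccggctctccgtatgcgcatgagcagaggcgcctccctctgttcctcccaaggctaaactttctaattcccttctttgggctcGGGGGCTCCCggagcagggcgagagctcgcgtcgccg

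The first LAMB3 window held 2 NF-κB stretches, at bases 192 to 201 and 240 to 250, and the other held 1 AP-1 stretch at bases 184 to 190. The LAMB1 window held 1 NF-κB stretch at bases 264 to 273, so the match was present in a gene that moved with TNFα and in a gene that was not called for it. Over the families 24 of 35 members matched a promoter entry, with 31 windows. An NF-κB stretch was in 25.8% of these windows and in 11.3% of the 35116 promoters of the table, an AP-1 stretch in 6.45% against 7.71%, and a GC box (GGGCGG) in 58.1% against 45.0%. Windows of 1 gene overlap in part, and a match in letters is not a bound site.

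LAMA5, the α chain of major basement membrane laminins, fell with each agent. LAMA5 (probe set 16920939) read 4.69, 4.80 and 4.90 with both agents, 4.95, 4.97 and 4.86 with TNFα, 5.00, 4.83 and 5.07 with apigenin, and 5.43, 5.44 and 5.60 in control. Every treated array lay below every control array, while the treated groups overlapped each other. The difference was -0.56 with TNFα (SE 0.11, limma adjusted p = 0.0296), -0.53 with apigenin (SE 0.11, adjusted p = 0.00767) and -0.69 with both agents against control (SE 0.11, adjusted p = 0.00114). The TNFα call was lost on leaving out control array 1, 2 or 3, TNFα array 1 or 3, apigenin array 1 or the array 2 with both agents, with adjusted p up to 0.229 over the alternatives tried. LAMA4, the other α chain above the array medians, was not called, at -0.36 with both agents against control (adjusted p = 0.109).

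LAMB1 and LAMC1, the β and γ chains shared by the most widespread laminins, fell with apigenin, alone and on top of TNFα. LAMB1 (probe set 17061662) read 6.13, 6.03 and 6.25 with both agents, 6.95, 6.89 and 6.93 with TNFα, 6.46, 6.36 and 6.47 with apigenin, and 6.92, 6.85 and 7.20 in control. The arrays with both agents were the lowest, those with apigenin alone came next, and TNFα and control arrays overlapped. The difference was -0.56 with apigenin (SE 0.12, limma adjusted p = 0.00705), -0.79 with both agents against TNFα (SE 0.12, adjusted p = 0.000963) and -0.85 with both agents against control (SE 0.12, 1.81-fold lower, adjusted p = 0.000355).

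LAMC1 (probe set 16674805) read 7.89, 7.88 and 7.82 with both agents, 8.45, 8.39 and 8.47 with TNFα, 7.70, 7.34 and 7.80 with apigenin, and 7.98, 8.15 and 8.21 in control. TNFα arrays were the highest and apigenin arrays the lowest. The difference was -0.50 with apigenin (SE 0.13, limma adjusted p = 0.0208) and -0.58 with both agents against TNFα (SE 0.13, adjusted p = 0.0109). The apigenin call was lost without control array 2, control array 3 or apigenin array 2, with adjusted p up to 0.0933 over the alternatives tried. LAMB2 (probe set 16953944), a β chain found in basement membranes of muscle, nerve and kidney, read 5.68, 5.67 and 5.67 with both agents and 6.17, 6.10 and 6.10 in control. These arrays did not overlap, and the difference was -0.45 (SE 0.12, adjusted p = 0.0292), but the call was lost on leaving out any 1 of these 6 arrays.

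**Figure D3:**
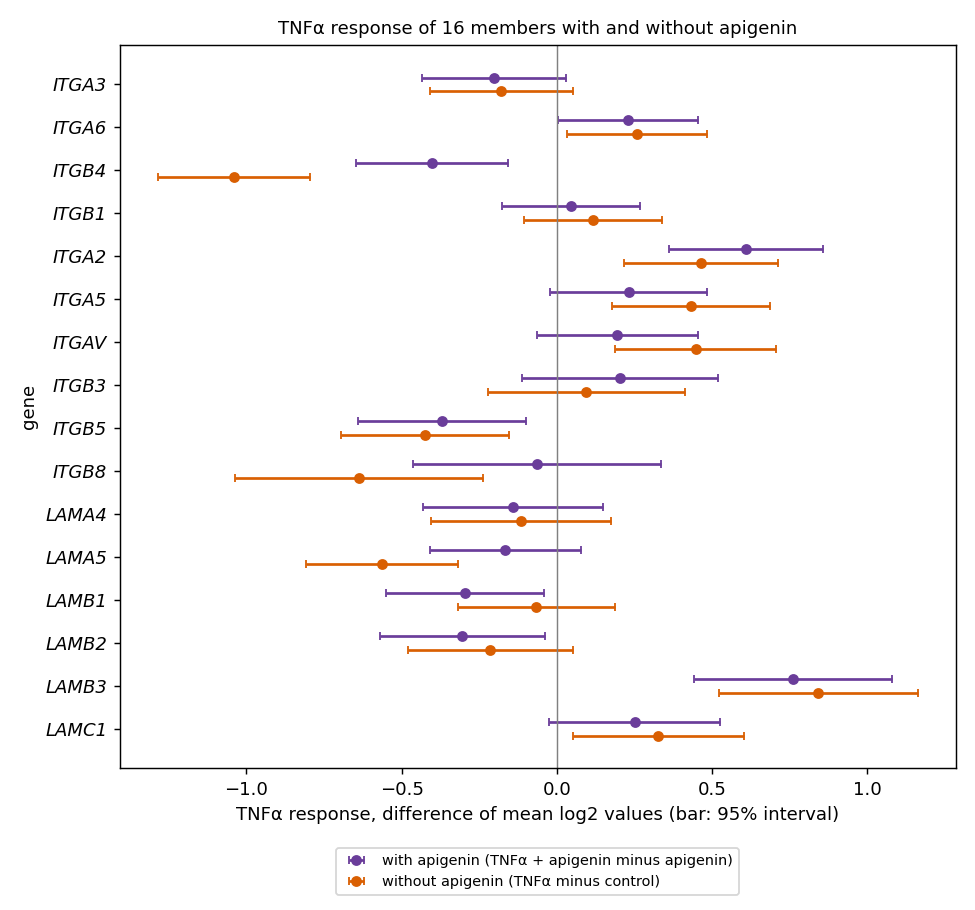
For the 16 members at or above the array median, points give the TNFα response as a difference of mean log2 values, with apigenin (both agents minus apigenin) and without it (TNFα minus control), and bars give 95% intervals from the limma fit. LAMB3 lies at 0.76 with apigenin and 0.84 without it; ITGB4 lies at -0.40 with apigenin and -1.04 without it, and no interaction was called.

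Small nucleolar RNAs, short guide RNAs whose yield can vary with RNA preparation, differed between arrays as well. The median level of 173 genes for small nucleolar and Cajal body RNAs lay between 5.85 and 5.90 on the arrays with both agents, 4.75 and 5.96 on the TNFα arrays, 5.77 and 6.34 on the apigenin arrays, and 5.33 and 5.69 on the control arrays. Every array with apigenin, alone or with TNFα, lay above every control array in this median. In comparisons of apigenin-treated cells with control, the covariate and the treatment therefore cannot be fully told apart. With that median as a covariate 4 of the 7 apigenin calls were made, for ITGA6, ITGB4, ITGB8 and LAMA5, and those of ITGA2, LAMB1 and LAMC1 were not. Without the arrays numbered 3 of each group the calls were for the same 4 genes. Of the calls for both agents against TNFα, those of ITGAV and LAMC1 were lost under either change and those of ITGA6 and LAMB1 were not. The TNFα call of LAMA5 was lost under either change, and the calls of ITGB5 and LAMB2 for both agents against control were lost without the arrays numbered 3. The part of these RNA levels in the lists of other adhesion genes was not tested.

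Integrin tails are joined to the cytoskeleton by adaptor proteins and kinases, some of which fell with apigenin. Of 30 measured adaptors and kinases of adhesion sites, 7 fell and none rose with apigenin against control, beside 6.83% of all genes called lower and 4.55% higher, with a list median of -0.05 against -0.02 for all genes. TNS3, a tensin that ties integrin tails to actin, read 3.39, 3.26 and 3.56 with apigenin and 4.37, 4.09 and 4.65 in control, a difference of -0.97 (SE 0.21, limma adjusted p = 0.00866). TNS4, a tensin without the actin-binding part, fell by 0.82 (adjusted p = 0.000713). It read 2.71, 2.65 and 2.83 with apigenin and 3.33, 3.75 and 3.56 in control. Its apigenin values lay just above the dim members, which reached 2.65, and the size of a fall is hard to measure there. The integrin activator FERMT1 fell by 0.84 (adjusted p = 0.0283) and VCL, which encodes the actin linker vinculin, by 0.67 (adjusted p = 0.0025).

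Of the same 30, 5 fell and 1 rose with both agents against TNFα, beside 5.92% of all genes called lower and 4.21% higher (list median -0.22 against -0.01). TNS3 read 3.56, 3.61 and 3.76 with both agents and 5.36, 4.43 and 5.23 with TNFα, without overlap, and differed by -1.37 (SE 0.21, limma adjusted p = 0.0012). FERMT1 fell by 1.01 (adjusted p = 0.0116), TNS2 by 0.68 (adjusted p = 0.00919) and VCL by 0.52 (adjusted p = 0.014). The gene that rose was FERMT2, a kindlin like FERMT1, at 0.47 (adjusted p = 0.0304); it was named after its value was seen. With TNFα against control TNS4 alone was called, at -0.66 (adjusted p = 0.0166), and 29 were not. In that comparison 0.219% of all genes were called lower. With both agents against control 5 fell and none rose, beside 5.37% of all genes called lower and 7.15% higher. The falls were led by TNS3 at -0.73 (adjusted p = 0.0382) and TNS4 at -0.70 (adjusted p = 0.00162), with FYN, a Src-family kinase, at -0.48 (adjusted p = 0.0149). On the arrays with both agents TNS4 read 2.86, 2.88 and 2.79, TNS2 2.77, 2.77 and 2.87, and FYN 2.69, 2.96 and 3.05. These levels were near the 2.65 that the dim members reached, and the sizes of these falls are hard to measure.

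Of 5 measured hemidesmosome genes outside the families, 1 was called. The list median was -0.31 with apigenin, -0.22 with TNFα and -0.12 with both agents against control, where all genes had -0.02, 0.02 and 0.00. It was 0.09 with both against TNFα and 0.06 with both against apigenin, where all genes had -0.01 and 0.03. No gene of the list was called with TNFα against control. The background of calls is the share of all genes given above for each comparison, such as 6.83% lower with apigenin. DST, which encodes the plakin that anchors keratin filaments to β4 integrin, spanned 7.97 to 8.03 on the arrays with both agents, 8.59 to 8.70 on the TNFα arrays, 7.61 to 7.73 on the apigenin arrays and 8.33 to 8.69 on the control arrays (n = 3 each). The arrays with apigenin lay below those without it. DST fell by 0.86 with apigenin against control (SE 0.11, limma adjusted p = 0.00031), by 0.66 with both agents against TNFα (adjusted p = 0.00247) and by 0.53 with both agents against control (adjusted p = 0.00761). The others were not called with apigenin: the plectin gene PLEC was at -0.32 (adjusted p = 0.174), the keratin genes KRT5 and KRT14 at -0.31 and 0.05, and the tetraspanin gene CD151 at 0.13.

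Among 15 measured basement membrane genes and other laminin receptors, 1 rose with TNFα, 1 rose and 1 fell with apigenin, 2 fell with both agents against TNFα, and 1 rose and 2 fell with both against control. The background was 0.778% of all genes higher with TNFα, 4.55% higher and 6.83% lower with apigenin, 5.92% lower with both against TNFα, and 7.15% higher and 5.37% lower with both against control, so 1 of 15 lower with apigenin is near the background. The list median was -0.04 with apigenin against control and -0.10 with both agents against TNFα, where all genes had -0.02 and -0.01. The gene that rose was SDC4 each time, a heparan sulfate proteoglycan of adhesion sites. SDC4 read 9.07, 9.13 and 9.12 with both agents, 8.85, 8.90 and 8.87 with TNFα, 8.81, 8.60 and 8.80 with apigenin, and 7.97, 8.07 and 8.14 in control. It was higher by 1.04 with both agents (SE 0.11, limma adjusted p = 3.8e-05), 0.81 with TNFα (adjusted p = 0.00151) and 0.68 with apigenin (adjusted p = 0.000986) against control. NTN4, a netrin that binds laminin, fell by 0.59 with apigenin (adjusted p = 0.015) and by 0.70 with both agents (adjusted p = 0.00501). SDC1, another syndecan, fell by 0.54 and the collagen IV gene COL4A1 by 0.52 with both agents against TNFα (adjusted p = 0.015 and 0.0203).

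Of 22 measured ligands of other integrins, 2 rose with TNFα, 2 rose and 2 fell with apigenin, 1 rose and 4 fell with both agents against TNFα, and 3 rose and 2 fell with both against control. Of all genes 0.778% were higher with TNFα, and 4.55% higher and 6.83% lower with apigenin. With both agents 4.21% were higher and 5.92% lower against TNFα, and 7.15% higher and 5.37% lower against control. The list median was -0.06 with TNFα and -0.08 with apigenin against control, where all genes had 0.02 and -0.02. ICAM1, the ligand of leukocyte β2 integrins, was higher by 2.63 with TNFα against control (SE 0.13, adjusted p = 1.2e-07) and was the only gene of the 5 lists called with both agents against apigenin, at 1.63 (SE 0.13, limma adjusted p = 4.1e-05). ICAM2, a ligand of the same receptors, was higher by 1.05 with TNFα (adjusted p = 0.00617). CCN2, a matricellular ligand, was higher by 1.12 with apigenin against control (SE 0.15, adjusted p = 0.000292) and by 1.14 with both agents against TNFα (adjusted p = 0.000328). THBS1, which encodes thrombospondin-1, fell by 0.81 and 0.91 in the same comparisons (adjusted p = 0.000598 and 0.000333), and the fibronectin gene FN1 by 0.37 and 0.51 (adjusted p = 0.0464 and 0.00906). FBN1, which encodes the microfibril protein fibrillin-1, fell by 0.86 with both agents against TNFα (SE 0.23, adjusted p = 0.0309).

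Of 10 membrane partners of integrins, 2 rose with TNFα, 1 rose and 2 fell with apigenin, 1 rose and 3 fell with both agents against TNFα, and 2 rose and 1 fell with both against control. Of all genes 0.778% were higher with TNFα, 4.55% higher and 6.83% lower with apigenin, and 4.21% higher and 5.92% lower with both against TNFα. With both agents against control, 7.15% of all genes were higher and 5.37% lower. The list median was -0.09 with TNFα and 0.06 with apigenin against control, where all genes had 0.02 and -0.02. The largest differences were rises. SLC3A2, the heavy chain of an amino acid transporter that binds β1 integrins, was higher by 0.95 with apigenin against control (SE 0.15, adjusted p = 0.00115) and by 0.99 with both agents against TNFα (adjusted p = 0.00111). PLAUR, the urokinase receptor, was higher by 0.90 with TNFα against control (SE 0.12, adjusted p = 0.00157) and fell by 0.48 with both agents against TNFα (adjusted p = 0.0192). CD82, a tetraspanin, was higher by 0.62 with TNFα against control (SE 0.12, limma adjusted p = 0.0249) and fell by 0.52 with both agents against TNFα (adjusted p = 0.0136). CAV1, the caveolin gene, fell by 0.60 with apigenin and by 0.58 with both agents against control (adjusted p = 0.00228 and 0.00271). CD47, a receptor that binds αVβ3 and thrombospondin, fell by 0.52 with apigenin (adjusted p = 0.0131). No gene of the 5 lists was called for the interaction.

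**Figure D4:**
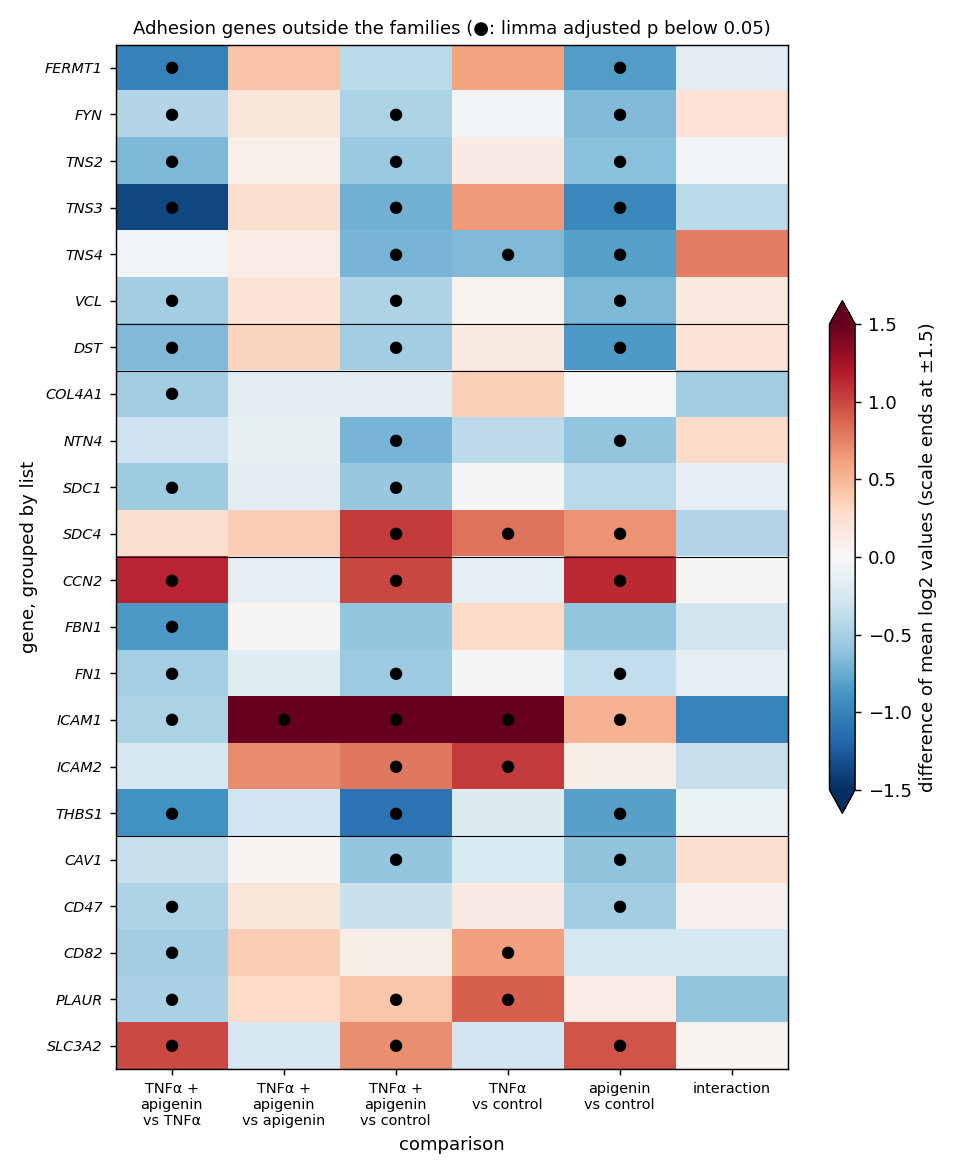
Colour gives the difference of mean log2 values (first group minus second, scale ending at 1.5 in either direction) for the named genes of the 5 adhesion lists, and a dot marks a limma adjusted p below 0.05. TNS3 and DST are lower in each comparison that adds apigenin, and SDC4 is higher in each comparison against control.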

How the data were processed

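Total RNA of 12 samples, extracted by the TRIzol/chloroform method and equalised in concentration, was labelled with a whole-transcript kit and hybridised to 1 Affymetrix array per sample, per the labels' protocols. The authors deposited log2 values per probe set; per the submitters' processing notes, they used Affymetrix Expression Console. Its version, its algorithm and the genome build were not given in the sources used here. Values ran from 0.536 to 12.5, and no scanner files were used, so background correction could not be varied. Array number, 3 per group, limits the precision.

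Of 53617 probe sets, 23871 carried 1 gene symbol, 1842 several, and 27904 are unnamed here. Symbols come from the platform's probe table, with 90 updated through the gene identifier against RefSeq. Probe sets at or above the 25th percentile of their own array on at least 3 arrays were kept (21895, for 20572 genes), and a gene was read from the probe set with the highest mean. Differences of group means were fitted in R 4.3.3 by limma 3.58.1 over all 12 arrays (functions lmFit, contrasts.fit and eBayes with defaults; 8 residual degrees of freedom), and p-values were adjusted by Benjamini-Hochberg over all genes. The fit was tested on simulated data. Tables were joined with pandas 2.3.3. The members, the 5 adhesion lists and the marker lists were chosen with earlier results of these data known. Named genes are the members called at least once, ITGB1, and up to 4 called genes per list and comparison with the largest difference; PLEC, KRT5, KRT14, CD151 and FERMT2 were added after their values were seen, as were the remaining members given by their values. Alternatives were quantile normalisation, other filters, the mean of probe sets, another variance model, fits of the compared groups only, a replicate block, a small nucleolar RNA covariate, and leaving out arrays.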

Additional observations from a re-analysis of the deposited data

How the results depend on the processing

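The 21 calls of members were recomputed under 21 alternatives, 12 of which leave out 1 array. No call changed direction, 12 were made under every alternative and 15 whichever array was left out. The 12 were those of ITGA6, ITGB4, ITGB8 and LAMA5 with apigenin and with both agents against control, ITGB4 with TNFα, ITGA6 and LAMB1 with both agents against TNFα, and LAMB1 with both against control. For TNFα against control, 3 members were called as deposited, 5 with a trended and robust variance model and 1 in a fit of those groups only. For apigenin against control the count was 7, and 4 with the small nucleolar RNA covariate or without the arrays numbered 3. For both agents against TNFα it was 4, and 2 without the arrays numbered 3; it was 6 with quantile normalisation and with the trended and robust model (ITGA2 and LAMB3 added in each), and 3 with the covariate (ITGAV and LAMC1 lost, LAMB3 added). For both agents against apigenin it was 0, 2 with the trended and robust model (ITGA2 and LAMB3) and 1 with the covariate (LAMB3). The cause was not tested. Leaving out 1 array gave 1 to 3 calls for TNFα, 5 to 7 for apigenin, 3 to 4 for both agents against TNFα, 0 to 1 against apigenin, 6 to 8 against control and 0 for the interaction. Without control array 1, control array 2 or TNFα array 1 the TNFα count was 1; without control 3 or TNFα 3 the count against apigenin was 1.

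With the replicate number as a block 5 members were called with TNFα (ITGA2 and ITGB8 added, adjusted p = 0.0369 and 0.0205), 7 with apigenin, 5 with both agents against TNFα, 2 against apigenin, 8 against control and 0 for the interaction. Same-numbered arrays deviated together at r = 0.018 to 0.464 over 18 pairs, 13 of them above 0.1. By the mean r with each number, 12 of 12 arrays were closest to their own. The main fit took no account of the numbers, so this shared deviation stayed in its residual spread. Over all genes the block gave 632 calls with TNFα against 205 without it, and 3315 against 2085 for both agents over TNFα; the covariate gave 1290 against 2342 with apigenin and 1057 against 2085 for both over TNFα. With 3 arrays per group the ITGB4 interaction of 0.64 was not called, and the 19 members in the low part of the scale read within 1.34 to 2.65, where falls are hard to measure.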
